A study of Mus musculus with 9 samples.

Results

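This report describes the ribosomal protein genes of mouse LSK cells, as read on whole-transcript arrays from Abi1 knockout and wild-type mice. The genes were taken by symbol: every symbol of the array annotation that begins with Rpl or Rps followed by a number and optional letters, or reads Rplp0, Rplp1 or Rplp2, with pseudogene symbols and the ribosomal S6 kinases left out. Of 87 such symbols, 44 had at least 1 probeset (the set of probes read out as 1 value) that carried no other symbol, and these 44 of the 30142 genes tested are described here. The other 43 symbols occurred only on probesets shared with further symbols, and 53 shared probesets carried any of the 87. The 44 comprised 20 genes of the large subunit, 17 of the small subunit, 6 paralogues (Rpl10l, Rpl22l1, Rpl39l, Rpl3l, Rpl7l1 and Rps27l) and Rps19bp1. The last encodes a protein that binds Rps19 and is not itself a ribosomal protein. Some other members also fit the name only in part. RefSeq lists Rpl6l, Rps3a2 and Rps3a3 as pseudogenes in spite of their symbols, Rpl32l is named as a copy of Rpl32, and Rps23rg1 is a retroposed copy of Rps23 that codes for a different protein. Without these 6 and the paralogues, 32 members were protein-coding core ribosomal proteins, 18 of the large and 14 of the small subunit.

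The ribosome is built from a large subunit, which joins amino acids, and a small subunit, which reads the messenger RNA. Each subunit holds ribosomal RNA and a fixed set of proteins, most of which are essential. Their messenger RNAs begin with a terminal oligopyrimidine (TOP) tract, a run of C and T in the gene that starts at the first transcribed base, through which the kinase mTORC1 controls their translation together. Haematopoietic stem cells make little protein compared with the progenitors that follow them, and loss of single ribosomal proteins in humans causes Diamond-Blackfan anaemia, a failure of red cell production.

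LSK cells are the lineage-negative bone marrow cells with Sca-1 and c-Kit on their surface, a population that includes haematopoietic stem cells and early multipotent progenitors. The 4 knockout (KO) mice were Abi1(-/-) with a Cre transgene under the Mx1 promoter, and the 5 wild-type (WT) mice kept both floxed Abi1 alleles and had no Cre. All 9 mice received 3 injections of poly(I:C), which sets off the interferon response that drives the Mx1 promoter, at 8 to 9 weeks of age, and marrow was taken at 12 to 14 weeks. The promoter acts in many interferon-responsive cells and not in LSK cells alone. Because Cre was present in KO mice only, its own effect and that of the deletion cannot be told apart. The Abi1 protein belongs to the WAVE complex, a regulator of branched actin. Each array held RNA of 1 mouse, amplified from 5 ng.

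The values are log2 signals as deposited. A gene was called above background when its mean exceeded the mean background level, set in each array as the percentile 95 of 1715 receptor genes for smell and pheromones, at 5.29 to 5.64. By that measure 16017 genes were above background. Abi1 itself had log2 signals of 6.11, 5.82, 5.59 and 5.76 in the KO arrays, against 11.65, 11.49, 11.50, 11.56 and 11.53 in the WT arrays, so each array matched its label (limma adjusted p = 7.42e-08). It was the only one of 30142 genes that passed the test. Of 14 markers of LSK cells, 11 were measured and all 11 lay above background, 2 with a higher and 9 with a lower mean in KO (median difference -0.215, and -0.18 without KO replicate 1). Kit averaged 14.38 in the 4 KO arrays (SD 0.37), against 14.67 in the 5 WT arrays (SD 0.16), while Ly6a, which encodes Sca-1, had no probeset of its own. KO replicate 1 and WT replicate 5 correlated least with the other arrays (median r across genes 0.986 and 0.989, against 0.993 to 0.996 for the other 7). Genes are not independent replicates, so these correlations only describe the arrays. Most results below are therefore given also without KO replicate 1, and some without both arrays.

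Nearly all of the 44 transcripts were detected. All 20 large subunit genes and all 17 small subunit genes exceeded background in every array, as did 4 of the 6 paralogues and Rps19bp1. Rpl10l and Rpl3l, whose proteins are known from testis and striated muscle, did not. The mean log2 signals of large subunit genes ran between 8.42 and 18.18 with a median of 14.32. Those of small subunit genes ran between 6.62 and 18.02 with a median of 13.07. The ends of the small subunit range were Rps23rg1 and Rps3a2, which fit the name only in part. Core coding genes of the small subunit ran between 8.79 and 17.19 with a median of 12.54. Core coding genes of the large subunit ran between 8.42 and 18.18 with a median of 14.41. Signals of different probesets depend on their probes, so these figures do not rank the genes or the subunits by abundance.

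**Figure D1:**
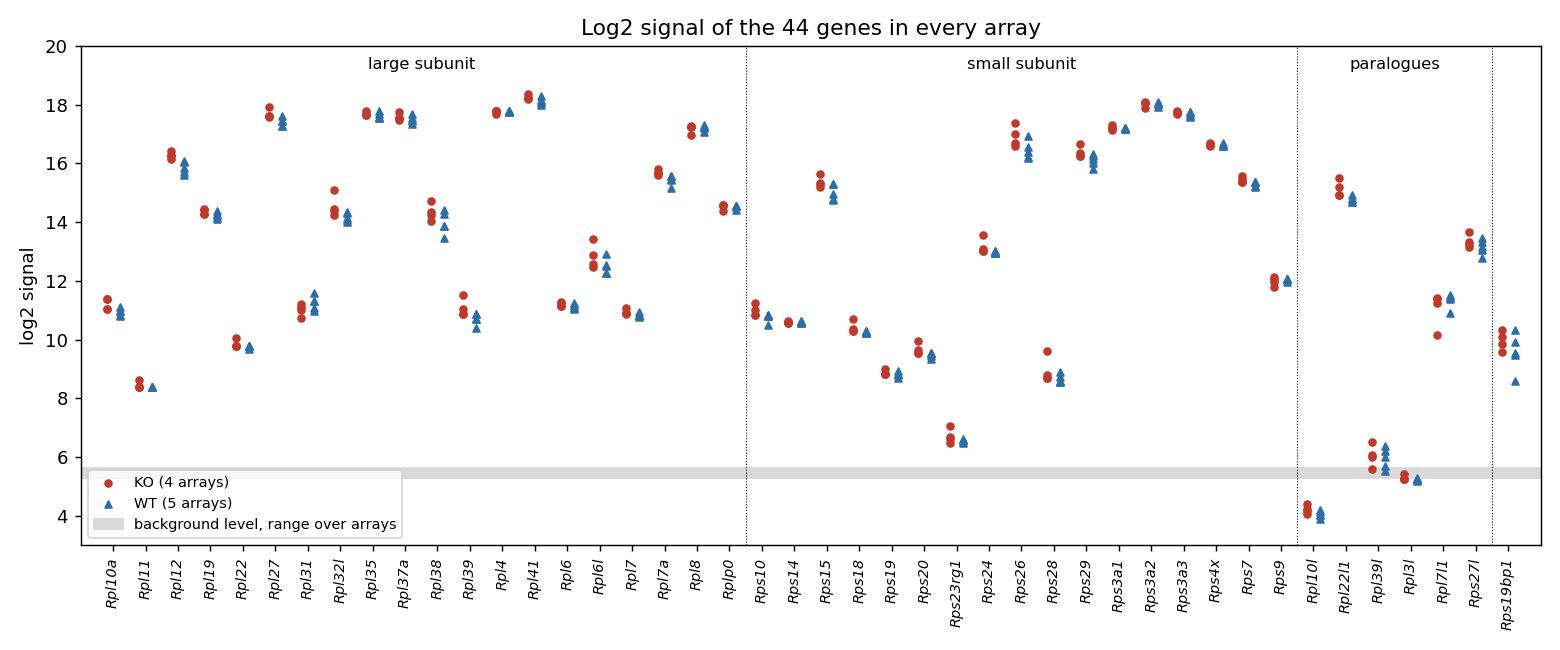
Log2 signal of each of the 44 genes (vertical axis) in the 4 KO arrays (red circles) and the 5 WT arrays (blue triangles), grouped into large subunit, small subunit, paralogues and Rps19bp1. The grey band spans the background level of the 9 arrays, from 5.29 to 5.64, and only Rpl10l, Rpl3l and some arrays of Rpl39l reach it or lie below.

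None of the 44 genes passed the test between KO and WT (limma, Benjamini-Hochberg over all genes, smallest adjusted p = 0.786), against 0.00332% of all genes tested. The means nevertheless leaned to one side: 38 of the 44 genes (86.4%) were higher in KO and 6 were lower, against 54.3% higher among all genes above background and 63.9% among all genes. The median log2 difference of the 44 genes was 0.13, against 0.018 for genes above background. Without KO replicate 1, 40 of 44 were higher but the median difference was 0.063, against 0.016 for genes above background. With each array centred on its own median, 32 of 44 were higher in KO and the median was 0.086, while genes above background then stood at -0.030 with 42.4% higher. The genes were chosen with earlier results known and share their arrays, so these counts carry no test.

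Both subunits leaned alike. In the large subunit 17 of 20 genes were higher in KO, with a median difference of 0.11 and a range from -0.24 to 0.42. Without KO replicate 1, 18 of 20 were higher with a median of 0.077. In the small subunit 15 of 17 were higher, with a median of 0.15 and a range from -0.054 to 0.45, and without KO replicate 1, 16 of 17 with a median of 0.058. The small subunit's median was thus larger than the large subunit's with all arrays and smaller without that 1 array. That change of order was not seen among the core coding genes. There the small subunit's median was 0.17 against 0.089 in the large subunit with all arrays. Without KO replicate 1 these medians were 0.064 and 0.055. Of the 32 core coding genes 27 were higher in KO with a median of 0.12, and 29 with a median of 0.063 without KO replicate 1.

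Unadjusted limma p-values under 0.05 occurred for 7 of the 44 genes, all with the higher mean in KO: Rpl12, Rpl22l1, Rpl7a, Rpl10a, Rpl27, Rpl39 and Rps15. Among genes above background 5.01% reached that level with a higher mean in KO and 1.92% with a lower one. Without KO replicate 1, 2 of the 44 (4.55%) did, Rpl12 and Rpl22l1, both higher in KO, against 3.44% of genes above background with a higher mean in KO. KO and WT arrays did not overlap for 2 genes, Rpl12 and Rpl7a, both higher in KO, against 0.937% of genes above background that were separated in that direction. Those 2 genes were read on probesets whose identifier carries the prefix of another chromosome, as described below. Of the 26 core coding genes whose brightest probeset carried their own chromosome, 0 were separated in that direction.

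**Figure D2:**
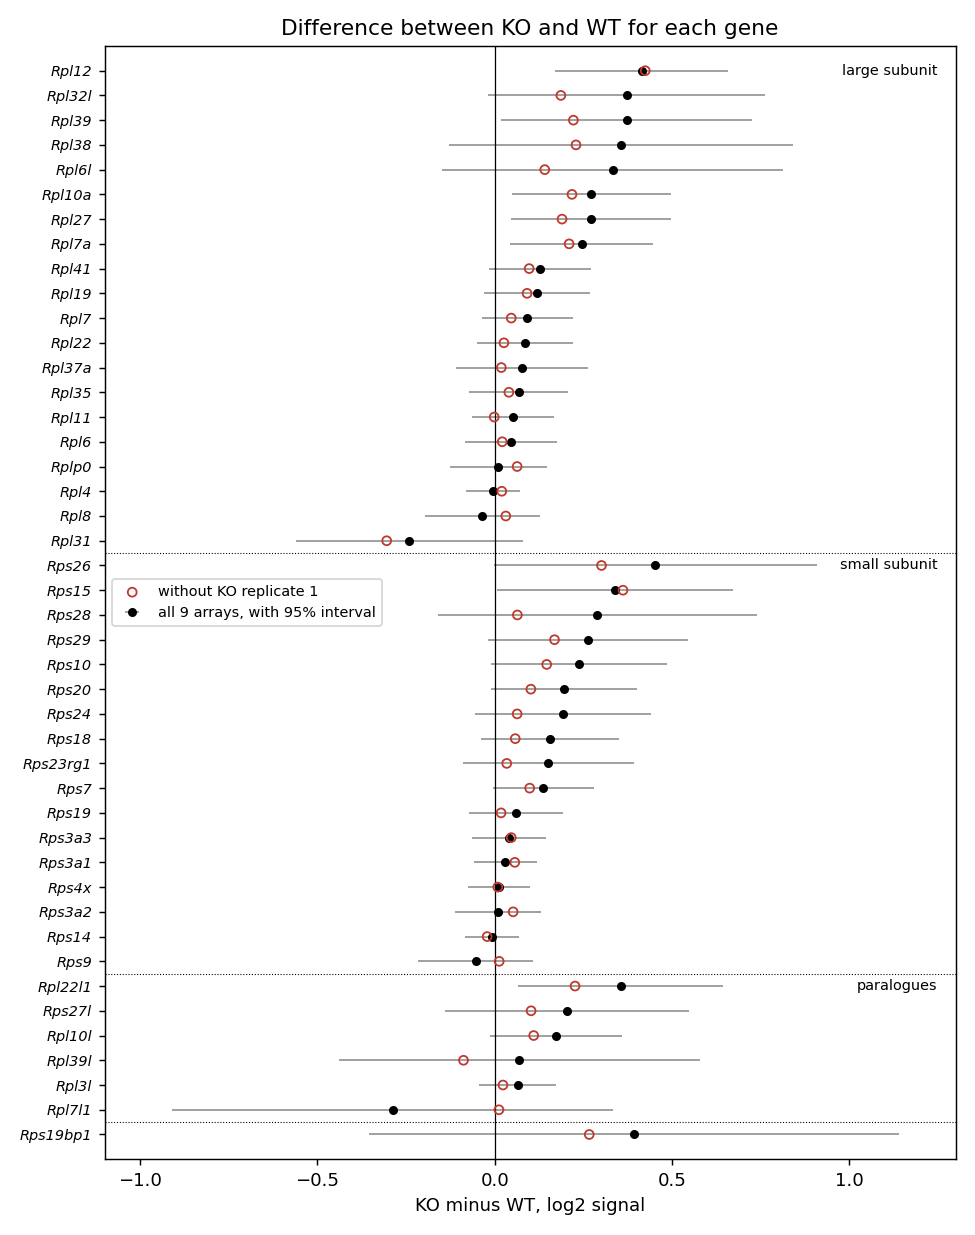
KO minus WT difference in log2 signal (horizontal axis) for each gene, with the 95% interval from limma over all 9 arrays (black points and grey lines) and the difference without KO replicate 1 (open red circles). Most points lie right of 0, and for most genes the red circle lies closer to 0 than the black point, as for Rps28 with 0.29 and 0.064.

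The shift was carried unevenly by the arrays. Each gene's deviation is its log2 signal in an array minus its mean over the 9 arrays. The median deviation of the 44 genes was 0.21, 0.067, -0.0072 and 0.0017 in KO replicates 1 to 4, against -0.11, -0.011, 0.034, -0.074 and -0.094 in WT replicates 1 to 5. KO replicates 3 and 4 thus lay within the range of the WT arrays, and KO replicate 1 stood above all others. The same array was the highest of the 9 for 29 of the 44 genes (65.9%), against 27.1% of genes above background. It was the lowest for 7 genes (15.9%, against 23.0%). WT replicate 5 was the lowest for 11 (25.0%, against 24.1%), WT replicate 4 for 9 (20.5%, against 8.20%) and WT replicate 1 for 8 (18.2%, against 8.98%). Over all genes above background the median deviation was 0.0056 in KO replicate 1, against -0.034 in the lowest array, WT replicate 5. The spread between KO replicates rested on that array too. In the small subunit the median SD was 0.19 in KO, or 0.055 without KO replicate 1. In WT it was 0.072, or 0.055 without WT replicate 5. In the large subunit the median SD was 0.11 in KO, or 0.042 without KO replicate 1, and 0.12 in WT with or without WT replicate 5.

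Markers of LSK cells and of other blood cells differed among the arrays as well. The LSK markers had median deviations of -0.30, 0.040, -0.034 and -0.12 in KO replicates 1 to 4, against 0.13, -0.0022, -0.21, 0.27 and 0.46 in WT replicates 1 to 5, lowest in KO replicate 1 and highest in WT replicate 5. All 11 neutrophil markers had a higher mean in KO, with a median difference of 0.49, although 5 of the 11 were below background. Their mean log2 signal was 7.75, 7.56, 5.68 and 5.99 in KO replicates 1 to 4, against 5.30 to 6.38 in the WT arrays, so KO replicates 1 and 2 exceeded every WT array. Erythroid markers, 9 measured, ran between 8.56 and 9.60 in KO, lowest in KO replicate 1, and between 6.75 and 9.78 in WT, lowest in WT replicate 5. Megakaryocyte markers, 7 measured, ran between 9.34 and 9.73 in KO and between 7.40 and 9.65 in WT, lowest in the same array. Mast cell and basophil markers, also 7, ran between 9.29 and 9.70 in KO and between 7.92 and 9.56 in WT. The 6 monocyte markers ran between 9.10 and 9.84 in KO and between 8.68 and 9.71 in WT. The 8 B lymphoid markers ran between 5.79 and 5.85 in KO and between 5.42 and 5.62 in WT, so all 4 KO arrays lay above the WT arrays, and 4 of these markers were below background. For the 7 T and NK markers the ranges were 6.62 to 6.79 in KO and 6.44 to 6.69 in WT, and 4 were below background. The part of such cells in the ribosomal protein differences was not tested. In RNA from sorted bulk cells, fewer cells of a type and less RNA per cell cannot be told apart.

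**Figure D3:**
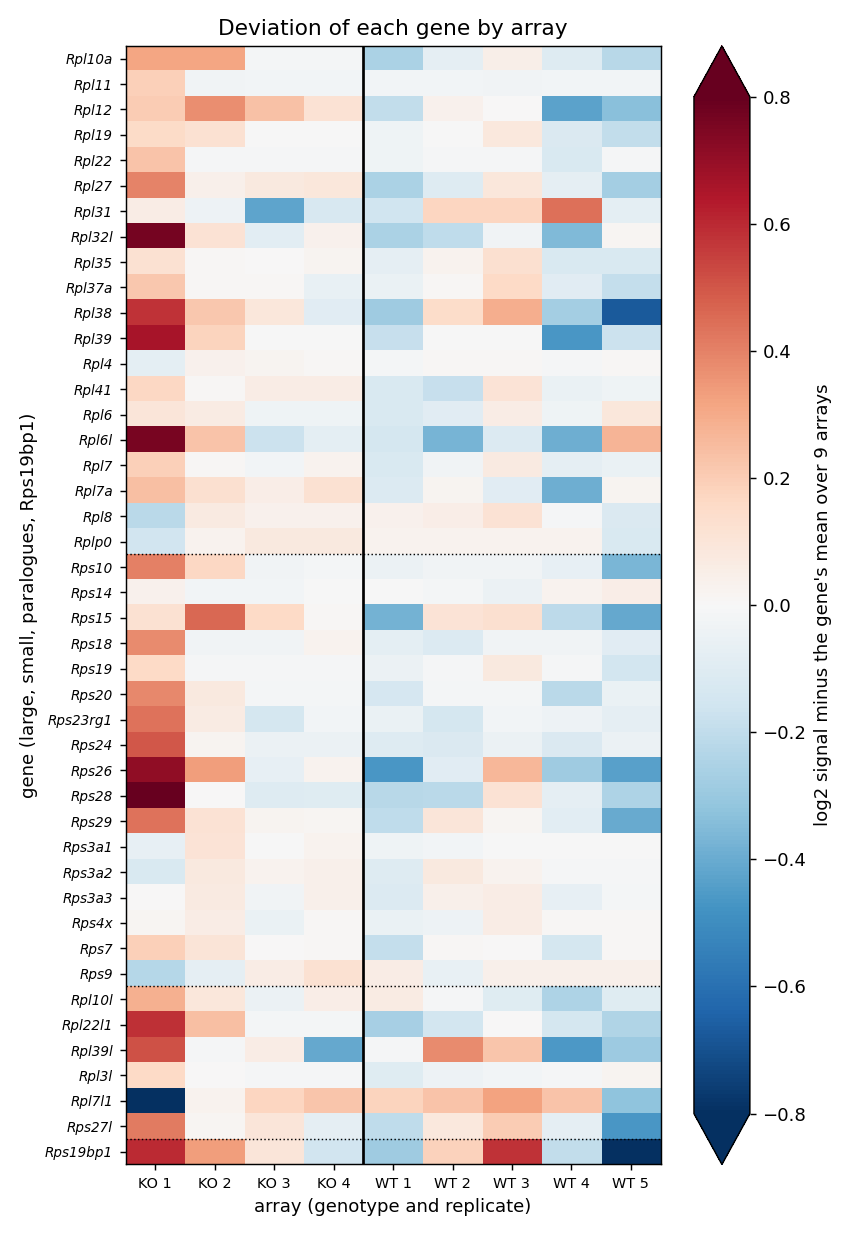
Deviation of each gene's log2 signal from its mean over the 9 arrays (colour, clipped at -0.8 and 0.8), with genes in rows and the 4 KO arrays left of the 5 WT arrays. The column of KO replicate 1 is red for most genes, with exceptions such as Rpl7l1, Rpl8 and Rps9, and KO replicates 3 and 4 are mostly pale.

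Promoter sequence was examined because ribosomal protein genes share a start-site architecture. RefSeq promoter windows (assembly GRCm38.p6, 250 bases before to 50 after each gene's start) were found for 36 of the 44 genes. A run of at least 8 C or T that lay at least partly within 10 bases of the start was present in 16 of 36 genes (44.4%), against 15.8% of all 27025 genes with a window. The longest such run had a median of 7 bases in the members and 4 in all genes. The motif CCGGAAG, a core of ETS-family binding sites searched on both strands in the 100 bases before the start, was present in 8 of 36 (22.2%), against 5.22% of all genes. The following windows show 60 bases before and 20 after the start, with the longest run of C and T near the start in capitals. The first 3 belong to genes with some of the larger differences between KO and WT, and the other 3 to genes whose differences lay near 0, chosen after their values were seen.
Rps26, chr10:128626487-128626566, minus strand: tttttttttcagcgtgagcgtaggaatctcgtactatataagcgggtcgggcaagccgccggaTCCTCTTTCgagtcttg
Rpl38, chr11:114668520-114668599, plus strand: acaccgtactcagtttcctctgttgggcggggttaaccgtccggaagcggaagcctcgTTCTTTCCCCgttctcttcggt
Rpl22l1, chr3:28805448-28805527, plus strand: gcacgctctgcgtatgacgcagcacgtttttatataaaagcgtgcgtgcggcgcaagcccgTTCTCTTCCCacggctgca
Rpl4, chr9:64173327-64173406, plus strand: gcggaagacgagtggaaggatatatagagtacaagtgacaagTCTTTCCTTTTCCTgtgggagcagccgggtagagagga
Rps9, chr7:3703981-3704060, plus strand: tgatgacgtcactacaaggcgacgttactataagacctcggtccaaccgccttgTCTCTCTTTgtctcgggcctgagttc
Rplp0, chr5:115559407-115559486, plus strand: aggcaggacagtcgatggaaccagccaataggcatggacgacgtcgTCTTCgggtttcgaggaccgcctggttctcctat
The run was 9 bases long in Rps26, 10 in Rpl38 and Rpl22l1, 14 in Rpl4, 9 in Rps9 and 5 in Rplp0, so long runs occurred on both sides. Other genes with large differences are not shown. Among them Rpl12 (0.42), Rps19bp1 (0.39) and Rps15 (0.34) had short runs of 7, 3 and 3 bases. Rpl32l and Rpl39 (0.37 each) had runs of 10 and 8. Of the 16 genes with a run of at least 8 bases, 13 were higher in KO with a median difference of 0.20, against 19 of the 20 genes with a shorter run and a median of 0.082. Without KO replicate 1 those medians were 0.097 and 0.060.

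Among the large subunit genes, Rpl12 had the clearest separation of the arrays. Its product sits at the base of the stalk that recruits translation factors. Its log2 signals were 16.24, 16.41, 16.27 and 16.15 in KO, against 15.84, 16.07, 16.04, 15.61 and 15.70 in WT. Every KO array lay above every WT array. The difference was 0.42 (SE 0.11, 95% interval 0.17 to 0.66, limma adjusted p = 0.786), which is 1.33-fold if the values are log2. It was the same size, 0.42, without KO replicate 1. The exact two-sided permutation test over the 126 splits of 9 arrays gave an unadjusted p = 0.0238, where 0.00794 is the smallest possible. Rpl7a and Rps10 had the same permutation p. Rpl12 was named for its small p in these same values, so this is not a separate test. The only probeset of Rpl12 carries a chromosome 10 prefix in its identifier, while RefSeq places the gene on chromosome 2.

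Rpl7a, another large subunit protein, was the other gene without overlap. Its log2 signals were 15.80, 15.69, 15.61 and 15.68 in KO, against 15.45, 15.58, 15.47, 15.17 and 15.58 in WT. The gap between the groups was narrow, from 15.61 in the lowest KO array to 15.58 in the highest WT arrays, and the difference was 0.245 (SE 0.088, limma adjusted p = 0.786). It was 0.21 without KO replicate 1.

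Rpl10a forms the stalk next to the site where used transfer RNAs leave. It had 11.38, 11.38, 11.05 and 11.05 in KO, against 10.81, 10.99, 11.11, 10.96 and 10.84 in WT. KO replicates 1 and 2 were the highest arrays and the other KO arrays overlapped WT replicate 3. The difference was 0.27 (SE 0.098, limma adjusted p = 0.786), and 0.22 without KO replicate 1. Rpl27, whose human counterpart is among the genes mutated in Diamond-Blackfan anaemia, had 17.93, 17.57, 17.61 and 17.62 in KO, against 17.28, 17.43, 17.62, 17.46 and 17.26 in WT. Here KO replicate 1 stood alone, and the difference was 0.27 with all arrays and 0.19 without it. Rpl39, a small protein that lines the exit tunnel and was picked after its values were seen, had 11.53, 11.05, 10.87 and 10.87 in KO, against 10.69, 10.87, 10.87, 10.41 and 10.70 in WT. Its difference of 0.37 (SE 0.15) was 0.22 without KO replicate 1.

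Rpl38, which in mouse is needed for translation of a subset of Hox messenger RNAs, was the most variable large subunit gene among WT arrays, with an SD of 0.38. Its log2 signals were 14.72, 14.36, 14.23 and 14.05 in KO, against 13.86, 14.29, 14.43, 13.87 and 13.47 in WT. The groups overlapped broadly. The difference was 0.36 (SE 0.21) with all arrays, 0.23 without KO replicate 1, 0.23 without WT replicate 5 and 0.10 without both. The pseudogene Rpl6l, also named for its spread, had 13.41, 12.88, 12.48 and 12.57 in KO, against 12.51, 12.28, 12.54, 12.26 and 12.92 in WT, and its difference was 0.33 with all arrays and 0.14 without KO replicate 1. Rpl32l, outside the naming rule, had a difference of 0.37 with all arrays and 0.19 without that array.

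The 3 large subunit genes with a lower mean in KO were Rpl31, Rpl8 and Rpl4. Rpl31, a protein at the mouth of the exit tunnel, had 11.21, 11.11, 10.73 and 11.02 in KO, against 10.99, 11.32, 11.32, 11.59 and 11.07 in WT. Its difference of -0.24 (SE 0.14, limma adjusted p = 0.786) came from a probeset with a chromosome 7 prefix, while the gene lies on chromosome 1. It was -0.14 without KO replicate 3, -0.16 without WT replicate 4 and -0.30 without KO replicate 1. Rpl8, near the centre where peptide bonds form, had 16.98, 17.27, 17.23 and 17.23 in KO, against 17.23, 17.25, 17.31, 17.19 and 17.08 in WT. Only KO replicate 1 was below the WT range, and without it the difference of -0.034 became 0.031. Rpl4, which forms a narrow point of the exit tunnel, had 17.68, 17.79, 17.78 and 17.77 in KO, against 17.74, 17.77, 17.77, 17.75 and 17.77 in WT. Its difference was -0.0050 (SE 0.034), one of the most tightly measured of the set.

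Rplp0, the anchor of the stalk, was the one stalk gene with a probeset of its own, as Rplp1 and Rplp2 were not among the 44. It had 14.37, 14.55, 14.60 and 14.60 in KO, against 14.55, 14.55, 14.55, 14.55 and 14.40 in WT, with a difference of 0.010 (SE 0.060, limma adjusted p = 0.961). KO replicate 1 and WT replicate 5 were the low arrays of their groups. Rpl11, which binds the p53 regulator Mdm2 when ribosome assembly fails, had 8.61, 8.39, 8.40 and 8.40 in KO, against 8.40, 8.40, 8.39, 8.40 and 8.40 in WT. The whole difference of 0.052 lay in KO replicate 1, and it was -0.0013 without it. Rpl22, a protein needed for T cell development in mice, had 10.04, 9.80, 9.80 and 9.80 in KO, against 9.78, 9.80, 9.80, 9.69 and 9.80 in WT, and its difference was 0.086 with all arrays and 0.026 without KO replicate 1.

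In the small subunit, Rps26 had the largest difference of all 44 genes. It lies at the exit of the messenger RNA channel, and its human counterpart is mutated in Diamond-Blackfan anaemia. Its log2 signals were 17.37, 17.00, 16.60 and 16.69 in KO, against 16.20, 16.57, 16.93, 16.38 and 16.23 in WT. KO replicates 1 and 2 were the highest arrays, and WT replicate 3 exceeded the other KO arrays. The difference was 0.45 (SE 0.20, limma adjusted p = 0.786, exact permutation p = 0.0714), 0.30 without KO replicate 1 and 0.24 without WT replicate 5 as well. Rps15, which takes part in the export of small subunit precursors from the nucleus, had 15.30, 15.64, 15.34 and 15.19 in KO, against 14.80, 15.29, 15.31, 14.97 and 14.77 in WT. Its difference of 0.34 (SE 0.15, limma adjusted p = 0.786) was no smaller without KO replicate 1, at 0.36.

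Further genes of human Diamond-Blackfan anaemia in the small subunit were measured. Rps10 had 11.26, 11.02, 10.83 and 10.84 in KO, against 10.81, 10.83, 10.83, 10.79 and 10.49 in WT. Rps29 had 16.66, 16.34, 16.25 and 16.24 in KO, against 16.02, 16.32, 16.24, 16.14 and 15.82 in WT. In both genes KO replicate 1 was the highest and WT replicate 5 the lowest array, and the differences were 0.24 for Rps10 and 0.26 for Rps29, or 0.15 and 0.17 without KO replicate 1 and 0.082 and 0.097 without both arrays. Rps28 had 9.63, 8.80, 8.69 and 8.70 in KO, against 8.57, 8.58, 8.91, 8.72 and 8.55 in WT, and was chosen as an example after its values were seen. Rps24 had 13.56, 13.09, 13.02 and 13.02 in KO, against 12.96, 12.95, 13.02, 12.95 and 13.02 in WT. KO replicate 1 was far above the other arrays for both genes: the difference of Rps28 was 0.29 with it and 0.064 without it, and that of Rps24 was 0.19 with it and 0.063 without it. Rps7 had 15.56, 15.47, 15.37 and 15.38 in KO, against 15.18, 15.38, 15.37, 15.23 and 15.38 in WT, with a difference of 0.14, and 0.099 without KO replicate 1. Rps19, the gene most often mutated in that disease, had 9.00, 8.83, 8.83 and 8.83 in KO, against 8.79, 8.83, 8.92, 8.83 and 8.69 in WT, and its difference was 0.061 with all arrays and 0.018 without KO replicate 1.

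The 2 small subunit genes with a lower mean in KO were Rps9 and Rps14. Rps9, which helps set the accuracy of decoding, had 11.79, 11.95, 12.08 and 12.14 in KO, against 12.08, 11.96, 12.06, 12.06 and 12.06 in WT. Its difference was -0.054 with all arrays and 0.013 without KO replicate 1. Rps14, whose human counterpart is lost in a form of myelodysplastic syndrome, had 10.63, 10.57, 10.57 and 10.59 in KO, against 10.59, 10.58, 10.55, 10.62 and 10.65 in WT, a difference of -0.0080. The bright genes Rps3a1, Rps3a2, Rps3a3 and Rps4x also lay near 0, at 0.030, 0.0095, 0.040 and 0.012.

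Of the 6 paralogues 5 were higher in KO, and their median difference was 0.12 with all arrays and 0.063 without KO replicate 1. Rpl22l1, the paralogue whose messenger RNA Rpl22 is known to repress in mice, had 15.52, 15.18, 14.92 and 14.92 in KO, against 14.67, 14.79, 14.94, 14.80 and 14.70 in WT. KO replicates 1 and 2 lay above every WT array and the other KO arrays were just below WT replicate 3. The difference was 0.36 (SE 0.13, limma adjusted p = 0.786), and 0.23 without KO replicate 1. Rps27l, a p53-induced relative of Rps27, had 13.66, 13.26, 13.34 and 13.17 in KO, against 13.04, 13.33, 13.45, 13.17 and 12.78 in WT, with a difference of 0.20. It was 0.10 without KO replicate 1, 0.11 without WT replicate 5 and 0.0092 without both. Rpl7l1, a nucleolar relative of Rpl7, was the exception: it had 10.15, 11.24, 11.38 and 11.43 in KO, against 11.39, 11.44, 11.53, 11.44 and 10.89 in WT. Its lower mean rested on KO replicate 1, as the difference was -0.29 with that array and 0.012 without it. Rpl39l, a germ cell paralogue, lay close to background, with 6.51, 5.99, 6.06 and 5.59 in KO, against 5.99, 6.38, 6.22, 5.54 and 5.71 in WT. Rpl10l (4.08 to 4.41 in KO, 3.88 to 4.19 in WT) and Rpl3l (5.26 to 5.43 in KO, 5.17 to 5.29 in WT) were not above background, so no fold is given. The Rps19-binding protein gene Rps19bp1 had the largest SE of the 44 genes and ran from 9.59 to 10.34 in KO and from 8.59 to 10.32 in WT. Its difference was 0.39 (SE 0.33).

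Ribosomal protein genes have many processed copies in the genome, and 1 probeset can lie in such a copy. For 6 members, Rpl12, Rpl27, Rpl31, Rpl35, Rpl41 and Rpl7a, the brightest probeset carried the prefix of another chromosome than RefSeq gives for the gene. Over all probesets with a RefSeq chromosome the prefix matched in 99.0% of 30291, and the files do not say what the prefix means. Rpl7a read on its own chromosome had 13.63, 13.78, 13.63 and 13.69 in KO, against 13.50, 13.63, 13.63, 13.55 and 13.59 in WT. There the groups touched at 13.63 and the difference was 0.10 (SE 0.046), less than the 0.245 of the brighter probeset. Rpl27 on its own chromosome had 11.97, 11.70, 11.70 and 11.70 in KO, against 11.63, 11.66, 11.72, 11.70 and 11.55 in WT, a difference of 0.12 against 0.27. Rpl35 differed by 0.081 on its own chromosome and by 0.068 on the other, and Rpl41 by 0.076 and 0.13. Rps26, read first on its own chromosome, had a second bright probeset with a chromosome 8 prefix, where the signals were 16.31, 15.77, 15.37 and 15.43 in KO, against 14.93, 15.11, 15.74, 15.23 and 15.00 in WT. Its difference of 0.52 there followed the same order of arrays at the top, KO replicate 1, KO replicate 2 and WT replicate 3. With each core gene read on its own chromosome, 26 of 30 genes were higher in KO with a median of 0.098.

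**Figure D4:**
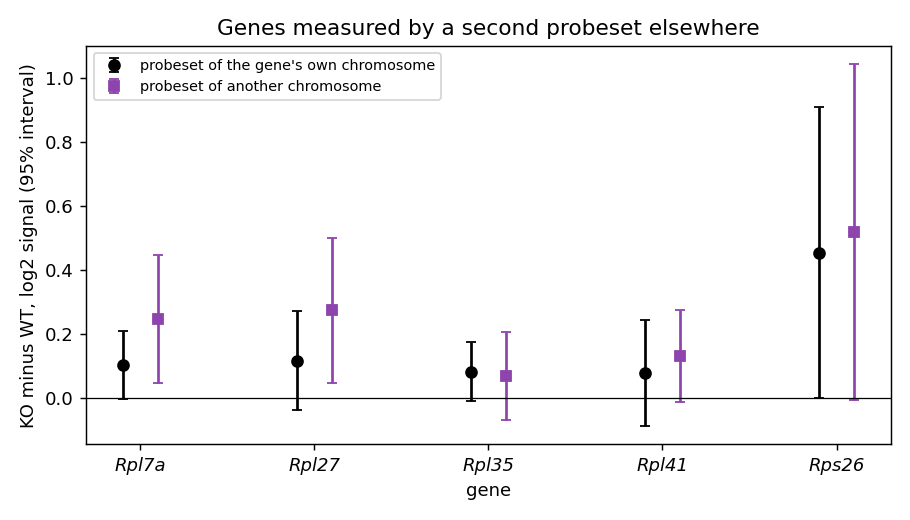
KO minus WT difference in log2 signal with its 95% interval (vertical axis) for the 5 genes that have both a probeset whose identifier carries the gene's own chromosome (black circles) and a bright one that carries another chromosome (purple squares). The purple value is the larger for Rpl7a, Rpl27, Rpl41 and Rps26, the intervals of each pair overlap, and the pairs were not tested against each other.

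The 53 probesets that carry a ribosomal protein symbol beside further symbols leaned the same way. They hold the 43 ribosomal protein symbols without a value of their own. Some may also carry symbols of genes described above, so this reading may not be separate from theirs. All 53 were above background, and 47 were higher in KO with a median difference of 0.13 and a range from -0.093 to 0.83. Without KO replicate 1, 50 were higher with a median of 0.085. Which of its genes each signal came from cannot be told from the array. Among ribosomal proteins outside the symbol rule, Rack1 had no probeset of its own. Fau, which encodes a small subunit protein fused to a ubiquitin-like protein, had 14.25, 14.47, 13.61 and 13.59 in KO, against 13.23, 13.44, 13.55, 13.09 and 13.22 in WT. The groups did not overlap, and the difference was 0.67 (SE 0.20, limma adjusted p = 0.786) on a probeset with a chromosome 16 prefix for a gene on chromosome 19. Rpsa, a small subunit protein also known as a laminin receptor, differed by 0.043 (SE 0.043).

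The rest of the translation machinery was read through lists of related genes, and none of these genes passed the test. The mitochondrial ribosome, which translates the few messages of the mitochondrial genome, had 61 of 75 genes higher in KO with a median of 0.13, and 68 with a median of 0.12 without KO replicate 1. Its median deviation was -0.44 in WT replicate 5, the lowest array, against 0.078 in KO replicate 1. WT replicate 5 was the lowest array for 58 of the 75, and KO replicate 1 was the highest for 24 and WT replicate 3 for 21. Mrpl23 and Mrps24 differed by 0.34 each, and Mrps10 and Mrpl24 by -0.33 and -0.11. Of 11 measured subunits of eIF3, the initiation factor that loads the small subunit, 7 were higher in KO with a median of 0.042, and all 11 were higher without KO replicate 1 with a median of 0.10. Their median deviation was -0.13 in KO replicate 1 and -0.29 in WT replicate 5, which was the lowest array for 6 of them. Eif3f had 10.87, 10.94, 10.81 and 10.83 in KO, against 10.63, 10.72, 10.68, 10.54 and 10.60 in WT, without overlap, and differed by 0.23 (SE 0.047, limma adjusted p = 0.786), and by 0.23 without KO replicate 1. Eif3k differed by 0.49 (SE 0.13), Eif3b by -0.37 and Eif3h by -0.070.

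Other genes tied to the ribosome were more evenly divided with all arrays, and for several lists less so without KO replicate 1. WT replicate 5, whose median deviation was the lowest of all arrays in several of these lists, stays in both readings. Of 17 measured non-ribosomal genes listed as having a TOP tract, 10 were higher in KO with a median of 0.035, and 15 with a median of 0.043 without KO replicate 1. Eif3f and Eef1b2 (0.12) were among the higher with all arrays, while Eef1d (-0.074) and Pabpc1 (-0.036) were lower. The list shares genes with the eIF3 list and with the elongation and assembly lists below, so these readings are not separate. Its tracts were not checked in the promoter windows. Of 8 genes of elongation factors and related proteins, Eef1e1 and Eef1akmt1 among the latter, 4 were higher in KO and 4 lower. Their median was 0.024, and 5 were higher with a median of 0.083 without KO replicate 1. Eef1b2 and Eef1g (0.062) had the smallest p-values among the higher, and Eif5a (-0.24) and Eef1d among the lower. Of 41 ribosome assembly factors 21 were higher in KO and 20 lower, with a median of 0.014, and 30 were higher with a median of 0.047 without KO replicate 1. Emg1 (0.21) and Sbds (0.18) were among the higher, and Nop14 (-0.20) and Rrp1 (-0.24) among the lower. Their median deviation was -0.13 in KO replicate 1, the array in which the ribosomal proteins were highest, and -0.39 in WT replicate 5. The latter was the lowest array for 24 of the 41. Their mean log2 signals were 11.14, 11.31 and 11.20 in KO replicates 2 to 4, against 11.23, 11.36, 11.20 and 11.26 in WT replicates 1 to 4. The KO arrays other than KO replicate 1 were thus not above the WT arrays other than WT replicate 5. The 10 genes of RNA polymerase I, which makes ribosomal RNA, and of its initiation factors were split 5 to 5. Their median was -0.0085 (-0.0070 without KO replicate 1), with Polr1d (0.25) and Polr1c (0.058) higher and Polr1b (-0.41) and Rrn3 (-0.20) lower. Without KO replicate 1 Polr1b differed by -0.14 and Rrn3 by -0.018, while Polr1d stayed at 0.25. Polr1c read 11.85 in every KO array, and its lowest WT array was WT replicate 5 at 11.54. Of 15 genes of mTORC1 and TOP control 6 were higher and 9 lower, with a median of -0.066 (7 higher and -0.019 without KO replicate 1), where Myc differed by 0.20, Eif4ebp1 by 0.28, Max by -0.16 and Tsc1 by -0.17. Of 9 chaperone and surveillance genes 6 were higher with a median of 0.089, and 8 with a median of 0.12 without KO replicate 1, from Cdkn1a (0.97, SE 0.42) and Nop53 (0.089) to Heatr3 (-0.17) and Bccip (-0.25).

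**Figure D5:**
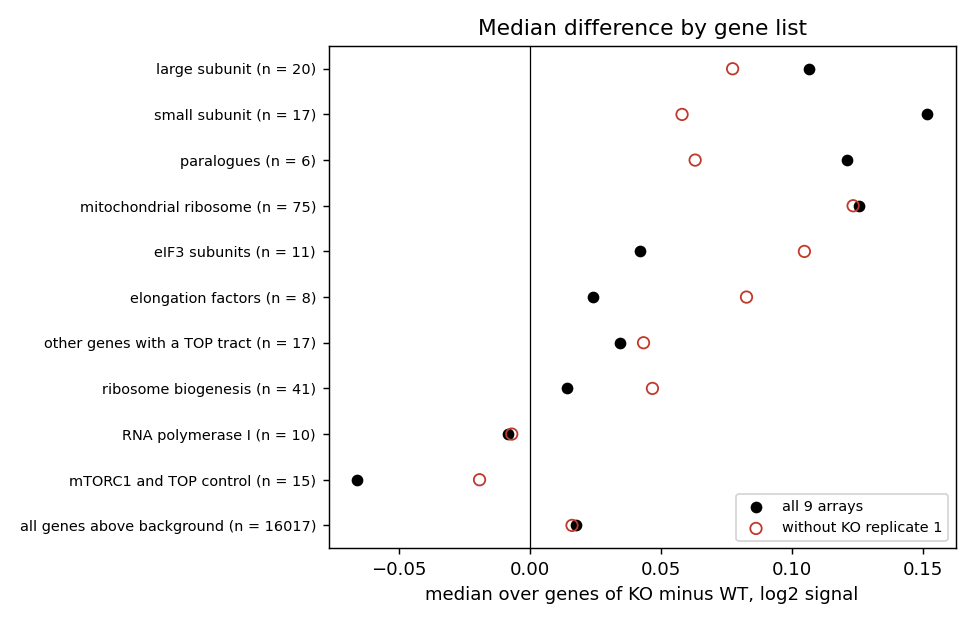
Median KO minus WT difference in log2 signal (horizontal axis) for the ribosomal protein groups, the related gene lists and all 16017 genes above background, with all 9 arrays (black points) and without KO replicate 1 (open red circles). The cytosolic ribosomal protein groups fall to between 0.058 and 0.077 without that array, while the median of the mitochondrial ribosome is 0.12. WT replicate 5, the lowest array for the mitochondrial list, is kept in both sets of points.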

How the data were processed

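Sorted LSK cells of 4 KO and 5 WT mice were read on Affymetrix whole-transcript arrays, 1 mouse per array, and the labels name no batch. The deposited values, summarised by the authors in Partek 6.6 per the submitters' processing notes, were taken as log2 signals. For the log base and the normalization, nothing is given in the sources used here. The range of 1.84 to 19.45 was read as log2. Of 65956 target probesets, 30604 carried 1 symbol. The brightest by its mean over 9 arrays stood for each of 30142 genes, 827 symbols having been updated through RefSeq. The test between genotypes was limma's (version 3.58.1, R 4.3.3, lmFit and eBayes without covariates), adjusted by Benjamini-Hochberg over all genes at 0.05. Single genes also had an exact permutation test, two-sided and unadjusted, over 126 splits of the arrays. The script was tested on simulated data. Precision is limited by the number of arrays: the median SE of a difference was 0.086 for members and 0.13 for genes above background. Values carry 2 decimals, and 4 of 44 members hold 1 identical value in at least 5 arrays.

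The members, lists, naming rule and alternatives were chosen with earlier results of these data known. By the rule, each subunit named the 4 genes with the smallest p in each direction and the 3 with the largest WT spread, with Rplp0, the paralogues, members not above background and a set of disease genes. The lists of related genes named up to 2 per direction. Alternatives were quantile normalization, median centring, no dim genes, an intensity trend, array weights, the median over probesets, the replicate number as a block, each array left out, both arrays that stood apart left out, and, added after seeing the data, probesets of the gene's own chromosome and core members alone.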

Additional observations from a re-analysis of the deposited data

Results flagged for a closer look

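Single arrays lay far from the others of their group for 11 of the named genes, by Dixon's criterion for 1 value against the rest of a group. Of the 54 groups examined 13 were singled out, 8 of them by KO replicate 1. The criterion singles out about 1 in 20 of independent, normally spread groups. These genes share their arrays and were named in part from the same values, so that rate cannot be set against the count. KO replicate 1 was also the highest array for 27.1% and the lowest for 23.0% of genes above background. KO replicate 1 was the high array for Rpl27 (17.93, against 17.57 to 17.62 in the other KO arrays), Rps24 (13.56, against 13.02 to 13.09), Rps19 (9.00, against 8.83), Rpl11 (8.61, against 8.39 to 8.40), Rpl22 (10.04, against 9.80) and, below background, Rpl3l (5.43, against 5.26 to 5.27). It was the low array for Rpl8 (16.98, against 17.23 to 17.27) and Rpl7l1 (10.15, against 11.24 to 11.43). WT replicate 5 was the low array for Rps10 (10.49, against 10.79 to 10.83 in the other WT arrays), Rplp0 (14.40, against 14.55) and Rpl7l1 (10.89, against 11.39 to 11.53). WT replicate 2 was low for Rps9 (11.96, against 12.06 to 12.08) and WT replicate 4 for Rpl22 (9.69, against 9.78 to 9.80). In several of these groups the other arrays hold 1 identical value, which makes any departure stand out. Another group with a range of 0.05 or less was set aside.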

How the results depend on the processing

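No member passed the test under any of 18 alternatives, where the smallest adjusted p was 0.665 (limma, without KO replicate 3). Over all genes 1 passed, Abi1, and 2 with array weights, Abi1 and Igll1. The count of members higher in KO, 38 with all arrays, was 35 to 40 when single arrays were left out, 36 without KO replicate 1 and WT replicate 5, 35 with quantile normalization and 32 with median centring. The median difference of all members, 0.13, ranged from 0.063 to 0.17 with single arrays left out and was 0.049 without both arrays. That of the large subunit, 0.11, ranged from 0.077 to 0.14. That of the small subunit, 0.15, ranged from 0.058 (without KO replicate 1) to 0.19, and was 0.073 with array weights and 0.053 without both arrays. The cause of these shifts was not tested. Unadjusted p-values under 0.05 numbered 7 of 44 with all arrays, 2 without KO replicate 1, 3 without KO replicate 2 or WT replicate 5, 4 without WT replicate 1, 10 without KO replicate 4 or WT replicate 3, 12 without KO replicate 3 and 4 with the replicate number as a block. The replicate block, which drops WT replicate 5 for want of a partner, gave a median of 0.12 with 38 members higher. Deviations of samples with the same number correlated weakly or not at all (r = -0.18, 0.15, -0.014 and 0.27 for numbers 1 to 4). KO replicates 1 to 4 correlated best with WT replicates 5, 2, 2 and 4, so for numbers 2 and 4 the best partner had the same number. The labels name no pairing, and these few correlations cannot tell whether samples of 1 number were handled together. Of 27 named members, 18 kept the direction of their difference under every alternative, and Rpl8, Rpl4, Rps9, Rps14, Rplp0, Rpl39l, Rpl7l1, Rps19 and Rpl11 did not.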
